A study of Mus musculus with 18 samples.

Results

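The sarcomere is the contractile unit of striated muscle, and 35 genes of its filaments and of the Z-disc at its ends were followed in gracilis muscle of mice given the β2-adrenergic agonist clenbuterol. The genes were taken by name, and each was read on the probeset to which the platform annotation gives its symbol, now or formerly, and, where there were several, on that with the highest mean log2 signal over the 9 arrays of its chip. They were 35 of 18193 genes with a probeset of their own on the arrays, and together had 68 of the 45037 probesets. For the comparison of fibre types, 9 members were taken as fast isoforms, 9 as their slow partners and 17 as other members.

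All mice were male C57BL/6J, 3 to 5 wk old, and had 10 daily intraperitoneal injections. The C group received vehicle throughout, the 24 h group 9 vehicle injections and then 1 of clenbuterol (1 mg/kg), and the 10 D group 10 of clenbuterol (1 mg/kg), and muscle was collected 24 h after the last injection in every group. Each group had 3 pools of RNA from 3 mice, and each pool was run on both chips of the MOE430 set (A and B), 18 arrays in all. The mice had been selected for their blood urea nitrogen and weight gain and then pooled at random within a treatment, cages of mice shared a treatment, and pooling hides the spread between single animals. The methods describe the gracilis as a muscle of mixed type I and type II fibres, and in bulk RNA fewer fibres of a type cannot be told apart from less RNA per fibre.

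In a sarcomere, thick filaments of myosin slide along thin filaments of actin when calcium binds troponin C and the troponin and tropomyosin strands free the sites on actin. Thin filaments are anchored in the Z-disc by α-actinin, with titin running from the Z-disc to the M-band in the middle of the thick filament. Fast and slow fibres use different genes for many of the same parts, so the balance of fast and slow isoforms is a common readout of fibre type, and β2-agonists are known in the field for shifts of muscle towards fast fibres.

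A level is given here as a multiple of the median signal of its array, in the order of pools 1, 2 and 3. A change is a difference of mean log2 levels from a limma fit to all probesets with its standard error (SE), and a probeset was called at an adjusted p under 0.1, the 10% false discovery rate of the study's methods. All 68 member probesets were bright enough to be tested. At 24 h, 3 of the 35 members were called, where 0.456% of the 33752 probesets tested were called: Mylk2 and Tcap were lower (0.127% of all probesets were called lower) and Flnc was higher (0.329% were called higher). At 10 D no member was called by limma or by the analysis of variance of the methods, and 0% of all probesets were called. On the probesets used, 0 of 35 members had an unadjusted p under 0.05 in limma, and of the 68 member probesets 1 did (4.56% of all probesets). Between 10 D and 24 h 0 members were called, where 0.0504% of all probesets were. The 9 fast and 9 slow members gave no call at either time. Each of the 3 calls rested on every C and 24 h pool: without any 1 of these 6 pools the limma adjusted p rose above 0.1 and reached 0.257 for Mylk2, 0.336 for Tcap and 0.341 for Flnc, while the log2 changes stayed between -1.25 and -1.06, -1.50 and -1.13 and 1.47 and 1.68. Without 10 D pool 3 Mylk2 and Tcap were not called either, and 0 members were called when the variance was shared with no intensity trend. Both contrasts use the same 3 C pools, so they are not independent of each other.

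**Figure D1:**
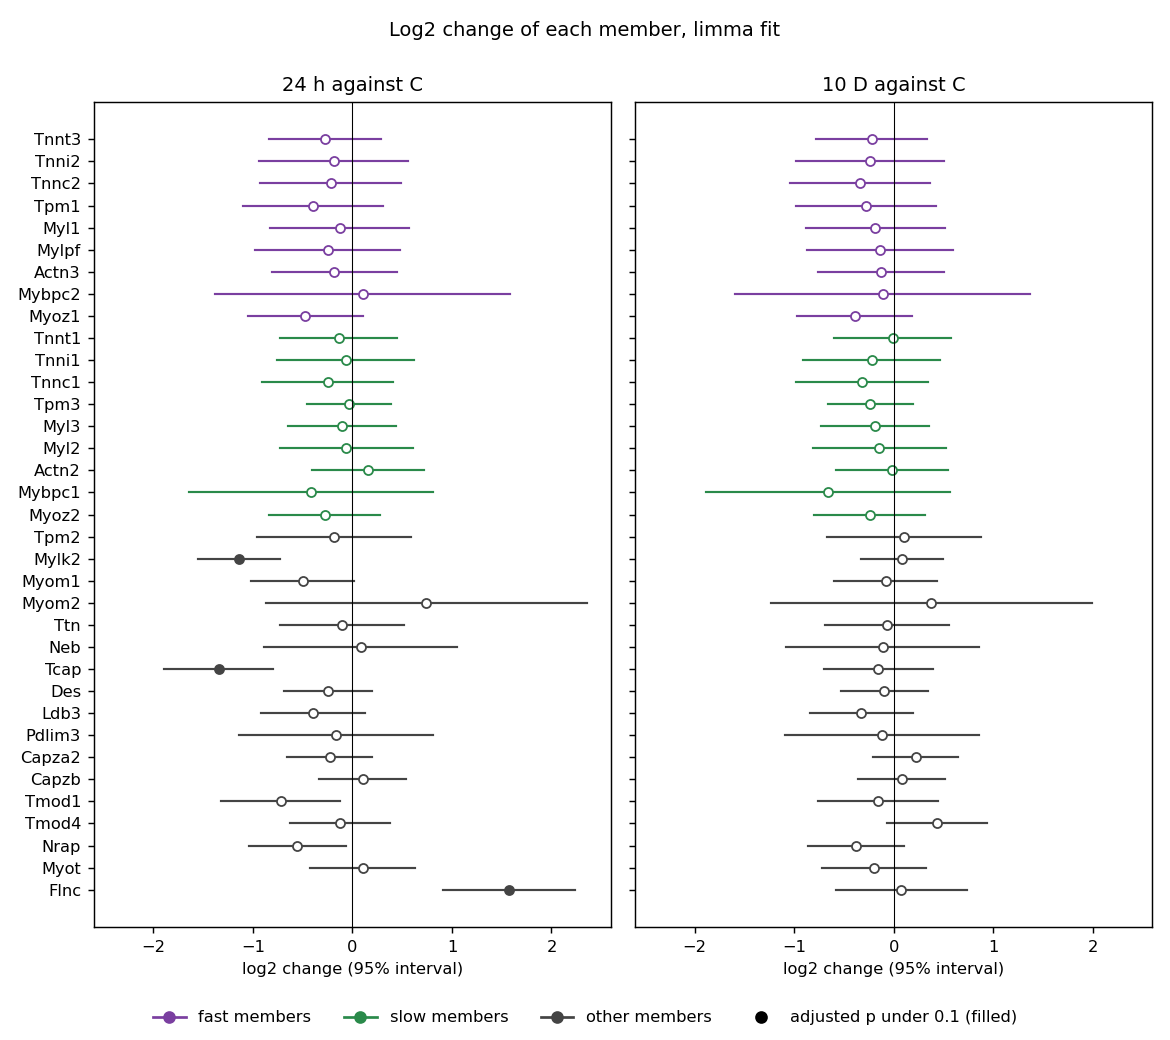
Log2 change of the 35 members at 24 h (left) and 10 D (right) against C on the horizontal axis, with 95% intervals from the limma fit and 1 row per member, coloured by fast, slow or other, filled where the adjusted p was under 0.1. Only Mylk2, Tcap and Flnc at 24 h are filled, and at 10 D the intervals of all 35 members span 0.

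Mylk2 encodes the skeletal muscle kinase that phosphorylates the regulatory light chain of myosin and thereby raises force. Its level was 27.1, 30.5 and 26.9 in the C pools, 12.1, 11.6 and 15 in the 24 h pools and 29.2, 30.1 and 30.3 in the 10 D pools. All 24 h pools lay below all pools of both other groups, and the 10 D pools stood within the spread of C. The fit gave a log2 change of -1.14 at 24 h (SE 0.19, adjusted p = 0.0531, 95% interval -1.55 to -0.72), a level 2.2-fold lower. At 10 D the log2 change was 0.08 (SE 0.19), with an interval of -0.33 to 0.50. The difference between 10 D and 24 h was 1.22 on the log2 scale and missed the call with an adjusted p of 0.106 in limma. Fitted within the 24 h and 10 D pools alone with the pool number as a block, it was called (limma, adjusted p = 0.0642). That fit was chosen after seeing the data, and pools were formed at random within a treatment, so the numbers are no designed pairing. The same fit did not call Tcap (limma, adjusted p = 0.112) or Flnc (0.222). In the F test among the 3 groups Mylk2 was the 1 member called (adjusted p = 0.0675), where 0.216% of all probesets were called.

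Tcap encodes telethonin, which joins the ends of neighbouring titin molecules in the Z-disc. Its level was 162, 121 and 127 in the C pools, 57.5, 39.9 and 66.6 in the 24 h pools and 101, 130.4 and 137 in the 10 D pools. All 24 h pools lay below all pools of C and 10 D, and the 10 D pools overlapped C. At 24 h it was 2.54-fold lower than in C, a log2 change of -1.34 (SE 0.25, adjusted p = 0.0782, 95% interval -1.89 to -0.79). At 10 D the log2 change was -0.16 (SE 0.25). The difference between 10 D and 24 h, 1.19 on the log2 scale, was not called (limma, adjusted p = 0.272). Titin itself (Ttn), the partner of telethonin, had tested probesets on both sides of 0 at 24 h. Both MOE430A probesets, the brightest, gave log2 changes of -0.10 (SE 0.28) and -0.18 (SE 0.30) and overlapped C. On MOE430B the brightest titin probeset was at 321, 207 and 218 in the C pools, 142, 155 and 75.1 in the 24 h pools and 152, 112 and 178 in the 10 D pools, so that all pools of both treated groups lay below C. Its log2 change was -1.04 at 24 h (SE 0.49, unadjusted p = 0.054, limma adjusted p = 0.597) and -0.75 at 10 D. The other MOE430B probesets changed at 24 h by -0.93 (SE 0.47), by -0.78 (SE 0.43, all 24 h pools below C) and, on the dimmest, by 0.33 (SE 0.37). No titin probeset was called, and they do not give 1 value for the gene.

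Flnc encodes filamin C, a muscle cross-linker of actin that sits at the Z-disc and under the fibre membrane. On its brighter probeset, on MOE430B, whose name carries the suffix for probes that can match other transcripts as well, the level was 25.7, 26.3 and 31.2 in the C pools, 71, 82.6 and 94.3 in the 24 h pools and 22.5, 24.9 and 44.3 in the 10 D pools. Every 24 h pool was above every pool of the other groups, and 10 D pool 3 stood above the other 10 D pools and all of C. The log2 change at 24 h was 1.57 (SE 0.30, adjusted p = 0.0779, 95% interval 0.91 to 2.23), a 2.97-fold higher level, and at 10 D it was 0.08 (SE 0.30). Between 10 D and 24 h it differed by -1.49 on the log2 scale and was not called (limma, adjusted p = 0.199).

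The other Flnc probeset, on MOE430A, did not give the same picture in 1 pool. Its level was 13.1, 12.7 and 12.3 in the C pools, 33.6, 9.76 and 30.2 in the 24 h pools and 10.6, 7.84 and 13.3 in the 10 D pools, so 24 h pools 1 and 3 stood well above C while pool 2 lay below it. Its log2 change at 24 h was 0.76 (SE 0.42), and the limma adjusted p was 0.67. At 24 h the 2 probesets gave the same direction for the group mean but disagreed on pool 2. At 10 D the log2 change was -0.29 on the MOE430A probeset and 0.08 on the MOE430B probeset, neither called.

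**Figure D2:**
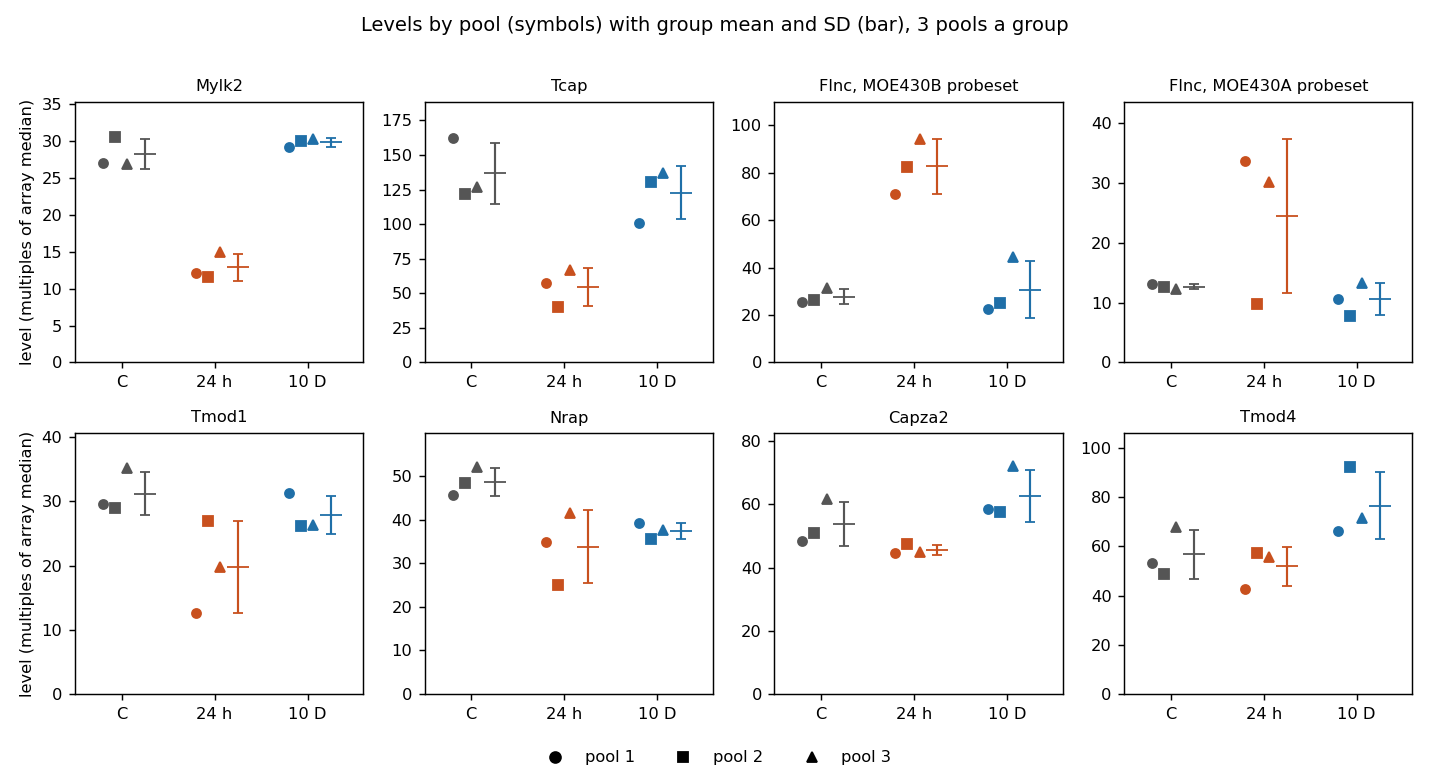
Level (multiples of the array median, linear axis from 0) of Mylk2, Tcap, both Flnc probesets, Tmod1, Nrap, Capza2 and Tmod4 in C, 24 h and 10 D, with a symbol per pool and the group mean and SD (n = 3) as a bar. The 24 h pools of Mylk2 sit between 11.6 and 15, below the other pools, and pool 2 at 24 h separates the 2 Flnc probesets.

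Sequence upstream of the start site was looked up in RefSeq (GRCm38.p6) and held an entry for 26 of the 35 members. It is shown for Flnc, which was called at 24 h, and for Tmod1 and Nrap, whose 24 h pools all lay below C. Muscle transcription factors can bind in such sequence. Myom1 and Capza2, whose 24 h pools also all lay below C, had an entry but are not printed. No entry was found for Mylk2, Tcap, Neb, Myot, Actn3, Myoz1, Myom2, Tnni2 and Tnnt3. Windows of 250 bases before the start site are printed 5′ to 3′ on the strand of the gene. Capitals mark the MCAT motif CATTCC (bound by TEAD factors), the half-site TGACG of the cAMP response element and the E-box CANNTG (bound by MyoD and its kin), each searched on both strands; none of the marked matches overlap.
Flnc, second of 2 start sites, chr6:29433006-29433255, + strand: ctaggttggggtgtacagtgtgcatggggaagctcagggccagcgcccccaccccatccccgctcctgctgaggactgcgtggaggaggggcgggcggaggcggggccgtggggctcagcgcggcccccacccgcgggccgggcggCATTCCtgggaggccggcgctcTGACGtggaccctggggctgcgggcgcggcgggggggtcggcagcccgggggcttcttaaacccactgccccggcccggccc
Tmod1, chr4:46038972-46039221, + strand: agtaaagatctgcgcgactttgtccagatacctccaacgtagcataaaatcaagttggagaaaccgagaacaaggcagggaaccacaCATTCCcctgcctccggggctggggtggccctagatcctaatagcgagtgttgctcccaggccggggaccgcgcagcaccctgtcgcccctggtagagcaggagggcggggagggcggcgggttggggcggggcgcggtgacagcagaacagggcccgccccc
Nrap, chr19:56390039-56390288, - strand: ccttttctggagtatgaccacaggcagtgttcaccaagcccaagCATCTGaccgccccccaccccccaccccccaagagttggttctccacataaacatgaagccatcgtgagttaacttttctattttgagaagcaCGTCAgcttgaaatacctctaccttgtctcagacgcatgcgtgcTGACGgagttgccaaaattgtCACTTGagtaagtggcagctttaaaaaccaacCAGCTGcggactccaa

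The Flnc window held 1 MCAT motif and 1 TGACG and no E-box, Tmod1 held 1 MCAT motif and no E-box, and Nrap held 3 E-boxes and 2 TGACG. The window of the first Flnc start site, 103 bases upstream, held none of these motifs. Over the 26 members, 23 had an E-box in a window, where 66.2% of 32851 promoter windows of the same length had 1. CATTCC was found in 8 members (12.6% of all windows), TGACG in 6 (17.8%) and the TATA box TATAAA in 3 (12.4%). A MEF2 site was found in 2, Myoz2 and Ttn (1.69%), and a CArG box, the site of serum response factor, in 3, Ldb3, Myl3 and Myom1 (1.47%). A gene with several windows was counted once if any held the motif, and a match is a stretch of letters, not a bound site.

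The thin filament members that switch contraction on were measured as fast and slow partners. Troponin T ties the troponin complex to tropomyosin, troponin I holds back the actin sites, and troponin C binds calcium. The fast troponin T gene Tnnt3 was at 307, 185 and 237 in the C pools, 172, 211 and 209 in the 24 h pools and 158, 229 and 234 in the 10 D pools. Slow Tnnt1 was at 29.8, 36.7 and 24.3 in the C pools, 24.8, 26.6 and 30.2 in the 24 h pools and 22.4, 41.8 and 27.7 in the 10 D pools. Both overlapped C at both times, with log2 changes at 24 h of -0.27 (SE 0.25) for Tnnt3 and -0.14 (SE 0.26) for Tnnt1.

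For the troponin I genes, fast Tnni2 stood at 464, 250.4 and 379 in the C pools, 241, 396 and 312 in the 24 h pools and 193, 384 and 360.5 in the 10 D pools. Slow Tnni1 stood at 8.35, 14.4 and 7.51 in the C pools, 8.37, 7.66 and 12.3 in the 24 h pools and 10.1, 6.31 and 8.95 in the 10 D pools. Within C, pool 2 was the lowest for Tnni2 and the highest for Tnni1, and on these probesets neither gene separated the groups. A dimmer Tnni2 probeset had all 24 h pools below C, with a log2 change of -0.61 (SE 0.32, limma adjusted p = 0.655). It overlapped C at 10 D, and the dimmest Tnni2 probeset overlapped C at both times. For the troponin C genes, fast Tnnc2 read 367, 199 and 278 in the C pools, 193, 280.1 and 237 in the 24 h pools and 141, 269 and 265 in the 10 D pools. Slow Tnnc1 read 43, 65.2 and 28.6 in the C pools, 35.2, 31.4 and 43.2 in the 24 h pools and 36.8, 39.1 and 28.5 in the 10 D pools. The same C pool 2 was again low for the fast and high for the slow gene, and the groups overlapped.

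Tropomyosin lies along actin and covers the sites where myosin binds. Tpm1, the α-tropomyosin of fast fibres, was at 394, 194 and 314 in the C pools, 177, 248 and 241 in the 24 h pools and 167, 277 and 290.5 in the 10 D pools. Tpm3, the slow tropomyosin, was at 25.4, 21.1 and 19.9 in the C pools, 20, 22.2 and 22.4 in the 24 h pools and 18, 21.1 and 17.3 in the 10 D pools. The log2 changes at 24 h were -0.39 (SE 0.32) for Tpm1 and -0.03 (SE 0.19) for Tpm3, with groups that overlapped. For both genes the tested probesets fell on both sides of 0 at 24 h, from -0.39 to 0.25 for Tpm1 and from -0.34 to 0.27 for Tpm3. Tpm2, β-tropomyosin, had a log2 change of -0.18 at 24 h and 0.10 at 10 D (SE 0.35).

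On the thick filament, the essential and regulatory light chains wrap the neck of the myosin head. The fast essential light chain gene Myl1 was at 305, 176 and 244 in the C pools, 170.0, 273 and 217 in the 24 h pools and 138, 253 and 257 in the 10 D pools. The slow essential light chain gene Myl3, shared with the heart ventricle, was at 52.2, 64.2 and 48.1 in the C pools, 44.8, 56.4 and 51.5 in the 24 h pools and 42.8, 65.9 and 38.4 in the 10 D pools. On the probesets used, both essential light chains overlapped C at 24 h and at 10 D. A dimmer Myl3 probeset lay below all C pools at both times, with log2 changes of -0.31 and -0.41 (SE 0.20), neither called. The dimmest Myl3 probeset overlapped C. Fast Mylpf, the regulatory light chain that Mylk2 phosphorylates in fast fibres, was at 362, 218 and 299 in the C pools, 160.1, 323 and 270.4 in the 24 h pools and 183, 321 and 299 in the 10 D pools. Slow Myl2, its ventricular and slow counterpart, was at 43.1, 54.7 and 34.9 in the C pools, 33.7, 43.9 and 48.8 in the 24 h pools and 26, 54.5 and 43.1 in the 10 D pools. The light chain substrates thus overlapped C at 24 h, with log2 changes of -0.25 (SE 0.33) and -0.06 (SE 0.30), while Mylk2 was called lower.

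Myosin binding protein C bridges the thick filament to the thin one. Mybpc2, the fast form, was at 433, 327 and 417 in the C pools, 337, 443 and 489 in the 24 h pools and 282, 345 and 482 in the 10 D pools. Mybpc1, the slow form, which fast fibres also carry, was at 191, 133 and 143 in the C pools, 138, 61.9 and 179 in the 24 h pools and 134, 45.6 and 149 in the 10 D pools. For Mybpc1 the second pool of both treated groups stood far below every other pool, and the remaining treated pools lay within or near C. Its log2 changes of -0.42 and -0.66 had an SE of 0.56 and moved to 0.03 and -0.12 without pool 2 of both treated groups. Pdlim3, a PDZ and LIM protein that binds α-actinin, showed the same pools apart, at 27.5, 26.8 and 29 in the C pools, 31, 12.9 and 38.4 in the 24 h pools and 41.2, 14.7 and 27.6 in the 10 D pools.

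At the Z-disc, Actn3 is the α-actinin of fast fibres and Actn2 that of all fibres, here taken as its partner. Actn3 was at 309, 194 and 248 in the C pools, 170.2, 261 and 228 in the 24 h pools and 163, 285 and 245 in the 10 D pools. Actn2 was at 36.3, 34.6 and 33.5 in the C pools, 47, 26.4 and 46.7 in the 24 h pools and 36.3, 28.9 and 38.4 in the 10 D pools, with 24 h pools on both sides of C. The α-actinin pair did not separate the groups at either time. The myozenins bind α-actinin and calcineurin, and the fast gene Myoz1 was at 148, 119 and 131 in the C pools, 96.2, 78.3 and 115 in the 24 h pools and 109, 71.7 and 131 in the 10 D pools. On the probesets used, all 24 h pools of Myoz1 were below all of C, as for no other fast member. The change of -0.47 (SE 0.26) was not called in limma (adjusted p = 0.67). Slow Myoz2 was at 15.5, 16.9 and 17.6 in the C pools, 17.5, 9.48 and 15.5 in the 24 h pools and 15, 12 and 15.5 in the 10 D pools, and overlapped C.

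As sets, the fast members had a median log2 change of -0.22 at 24 h (from -0.47 to 0.10, 8 of 9 below 0) and -0.22 at 10 D (from -0.39 to -0.11, 9 of 9 below 0). The slow members had -0.10 at 24 h (from -0.42 to 0.15, 8 of 9 below 0) and -0.22 at 10 D (from -0.66 to -0.01, 9 of 9 below 0). Over all probesets tested the medians were 0.02 and 0.01, and 48.2% and 48.4% were below 0. On the probesets used, no fast or slow member was called at either time by limma and none had an unadjusted p under 0.05. The smallest limma adjusted p at 24 h was 0.67 among the fast and 0.828 among the slow members. A dimmer Tpm3 probeset had a log2 change of -0.68 at 10 D (SE 0.30, limma unadjusted p = 0.045), not called. With quantile normalization in place of the array median, 6 of 9 fast members were below 0 at each time, with medians of -0.06 and -0.04. At 24 h the 95% interval of a fast member reached 0.56 to 0.75 to either side of its change for the 8 read on MOE430A and 1.48 for Mybpc2, read on MOE430B. For the slow members it reached 0.42 to 0.69 on MOE430A and 1.23 for Mybpc1 on MOE430B. The limma variance is shared with probesets of like brightness, so these widths are not the spread of the member's own pools alone. Mybpc2 was 1 of only 5 tested MOE430B probesets with a mean log2 signal from 12 to 13.

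Within each pool the log2 difference between fast and slow partner was taken for the 9 pairs and set against its mean in C. At 24 h the median over the 9 pairs was -0.14, from -0.36 for Tpm1 and Tpm3 to 0.52 for Mybpc2 and Mybpc1, with 7 pairs below 0. At 10 D it was -0.02, from -0.21 for Tnnt3 and Tnnt1 to 0.56 for Mybpc2 and Mybpc1, with 6 below 0. In 0 of the 9 pairs were all pools of a treated group above, or all below, every C pool. The SD between pools of a group was 0.395 for the median over pairs, wider than both median changes, and from 0.186 to 0.932 for single pairs in C. Under quantile normalization the medians were 0.09 and 0.21, above 0 where the array median gave values below 0. These differences were described without a test.

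**Figure D3:**
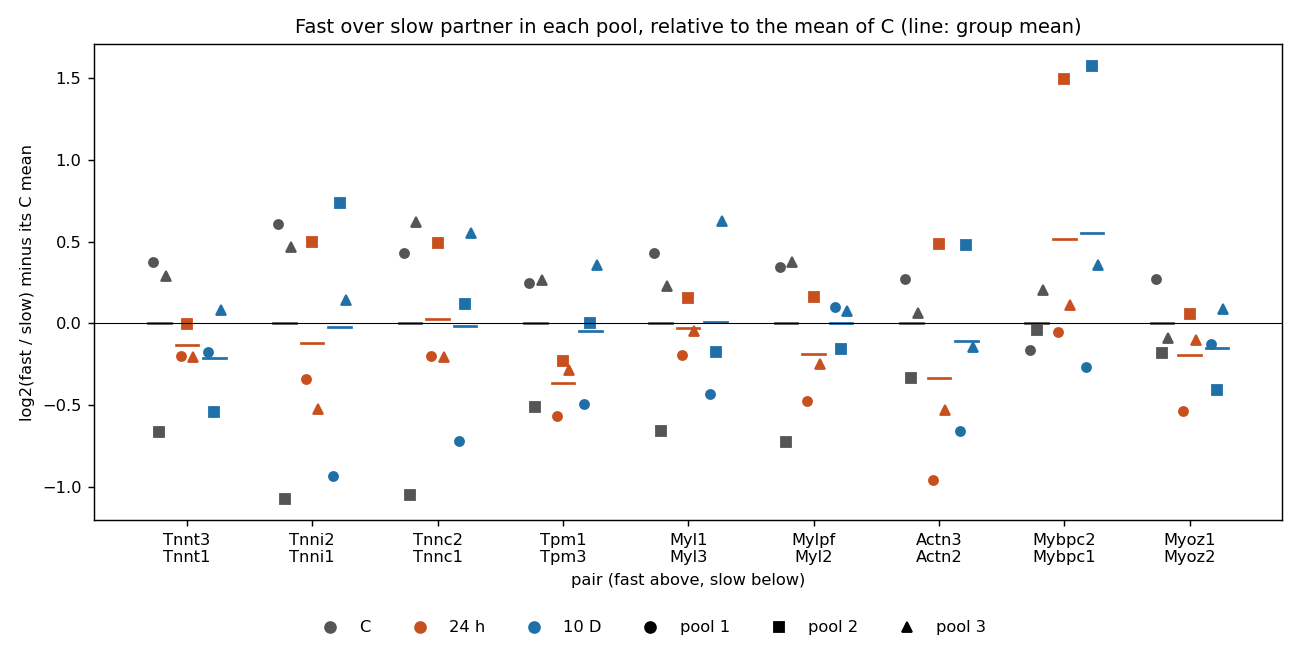
Log2 of the fast over the slow partner in each of the 9 pools, minus its mean in C (vertical axis), for 9 pairs, coloured by group with a symbol per pool and a line at each group mean. The pools of the 3 groups overlap in all 9 pairs, C pool 2 is the lowest C pool in 8 pairs, and 24 h and 10 D pool 2 stand high for Mybpc2 and Mybpc1; with quantile normalization the median over pairs moved above 0.

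For the fast members the order of the pools within C and 24 h ran mostly against the brightness of the arrays. In C all 9 fast members were highest in pool 1 and lowest in pool 2, whose MOE430A arrays had the lowest and highest median signal of the group (30.8 and 65.0), as had their MOE430B arrays. At 24 h, 8 of 9 were lowest in pool 1 (median 62.1) and 7 of 9 were highest in pool 2 (35.7), and at 10 D 8 of 9 were lowest in pool 1 (88.4), while 5 were highest in pool 3 (46.6) and 4 in pool 2, the dimmest array (33.6). Myoz1 was the exception, lowest in pool 2 of both treated groups. The array medians on MOE430A ranged over 2.87-fold, but the highest signal on each array ranged over 1.23-fold, from 13973 to 17143. All 9 fast members ranked within the 100 brightest probesets of their chip. Tnni2 ranked 1 and was the brightest probeset on 6 of 9 arrays, with signals from 12891 to 17058.

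A probeset whose signal grows in proportion to the array has a slope of 1 when its log2 signal is set against the log2 array median. The fast members had a median slope of 0.29 (from 0.20 to 1.09), the slow members 1.17 (from 0.63 to 1.78) and the other members 0.83. Over the MOE430A probesets tested the median slope was 1.04 for a mean log2 signal under 8, 1.24 from 8 to 10 and 0.98 from 10 to 12. It was 0.56 from 12 to 13 and 0.28 for 13 and over. That last class held 32 probesets, of which 7 were fast members, and the other 25 also had 0.28. Myoz1, in the class from 12 to 13, had a slope of 1.09. The 3 called members had slopes of 1.05 (Mylk2), 0.82 (Tcap) and 0.22 (Flnc). With the log2 array median as a covariate the SE of the fast members had a median of 0.15 in place of 0.32, the median change at 24 h was -0.12, and again none was called. The same 3 members were called at 24 h in that fit.

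**Figure D4:**
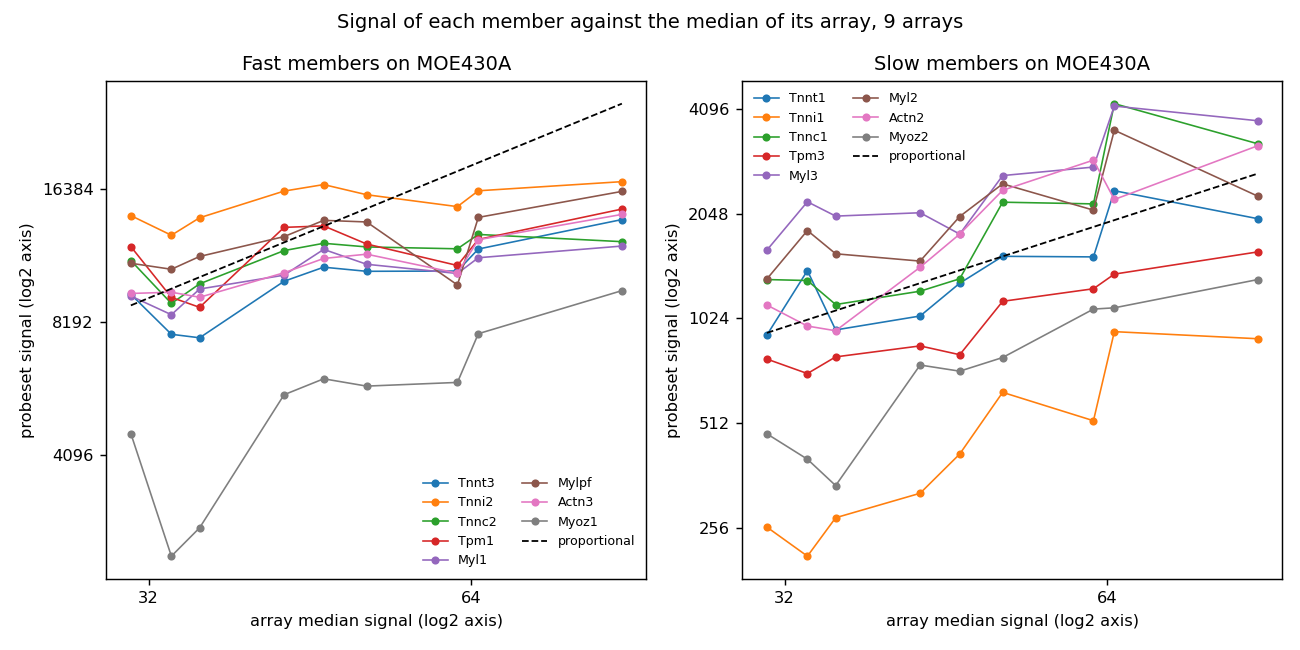
Signal of the 8 fast (left) and 8 slow (right) members read on MOE430A against the median signal of the array, both on log2 axes, for 9 arrays, with a dashed line where signal is proportional to the median. Apart from Myoz1 the fast members run flatter than the dashed line, with a median slope of 0.29 over all 9 fast members against 1.17 for the slow ones.

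Among the capping proteins, tropomodulin closes the slow-growing end of the thin filament. Tmod1 was at 29.5, 29 and 35.1 in the C pools, 12.6, 26.9 and 19.7 in the 24 h pools and 31.4, 26.2 and 26.3 in the 10 D pools. All 24 h pools were below C and differed widely among themselves, and the log2 change of -0.72 (SE 0.27) had an unadjusted p of 0.023 and an adjusted p of 0.479 in limma. Tmod4, the tropomodulin of fast skeletal muscle, was at 53.4, 48.9 and 68 in the C pools, 42.8, 57.5 and 55.5 in the 24 h pools and 66.3, 92.1 and 71.4 in the 10 D pools. At 10 D it was above all 24 h pools in 3 of 3 pools, by 0.56 on the log2 scale (limma, adjusted p = 0.869), and it overlapped C. Capza2, a subunit of CapZ, which caps the end of the thin filament held in the Z-disc, was at 48.4, 51.1 and 61.8 in the C pools, 44.5, 47.4 and 44.9 in the 24 h pools and 58.5, 57.5 and 72.2 in the 10 D pools. The 24 h pools of Capza2 were below both other groups, and the step from 24 h to 10 D of 0.45 was not called (limma, adjusted p = 0.897). Its partner subunit Capzb overlapped C at both times and had probesets on both sides of 0.

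Nrap, a nebulin-related protein of myofibril assembly and of the muscle end, was at 45.6, 48.3 and 52.1 in the C pools, 34.9, 25 and 41.6 in the 24 h pools and 39.2, 35.6 and 37.5 in the 10 D pools. On the probesets used, it was the 1 member whose pools lay below all C pools at both times. Its log2 changes were -0.55 and -0.38 (SE 0.22), with limma adjusted p-values of 0.502 and 1. Neither change was called. Dimmer probesets of Ttn, Myl3 and Ldb3 also lay below all C pools at both times.

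In all, 7 of 35 members had every 24 h pool below every C pool (Mylk2, Tcap, Tmod1, Nrap, Myom1, Myoz1 and Capza2), where 7.23% of all probesets did, and 1, Flnc, had every pool above, where 9.6% did. At 10 D the counts were 1 below (4.52% of all probesets) and 0 above (5.76%). An unadjusted p under 0.05 at 24 h was found for 4 members that were lower (3.55% of all probesets) and 1 that was higher (5% of all probesets), the 3 called ones included. Between 10 D and 24 h the counts were 4 higher at 10 D (2.52%) and 1 lower (2.95%). The median log2 change over the 35 members was -0.18 at 24 h and -0.14 at 10 D.

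The remaining 10 of the other members had no unadjusted p under 0.05 in any comparison on the probeset used. They ranged from -0.50 to 0.74 at 24 h and from -0.32 to 0.38 at 10 D on the log2 scale. Myom1 and Myom2 cross-link thick filaments at the M-band and stood at the ends of that range at 24 h, with -0.50 (SE 0.23) and 0.74 (SE 0.74). Myom1 lay below C in 3 of 3 pools at 24 h (limma, adjusted p = 0.604). Nebulin (Neb), which runs along the thin filament, desmin (Des), the intermediate filament that ties Z-discs together, Ldb3, which binds α-actinin, and myotilin (Myot) all overlapped C at both times. Of the 14 members with several tested probesets, 4 had probesets on both sides of 0 at 24 h, namely Capzb, Tpm1, Tpm3 and Ttn. A dimmer Ldb3 probeset was below all C pools at both times, at 22.2, 20 and 19.3 in the C pools, 15.6, 5.21 and 8.21 in the 24 h pools and 17.1, 4.6 and 13.3 in the 10 D pools, with a log2 change of -1.23 at 24 h (SE 0.50, limma adjusted p = 0.514).

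Other genes of the same structures, 38 in a list, gave 35 with a probeset and 34 tested. At 24 h 1 was called, higher, and none lower. It was vinculin (Vcl), which links actin to the membrane at costameres, at 13.4 ± 0.968 in C (SD, n = 3), 28.2 ± 1.66 at 24 h and 24.5 ± 1.68 at 10 D. Its log2 change was 1.07 at 24 h (limma, adjusted p = 0.0569) and 0.87 at 10 D, not called. The call was lost without any 1 of the C and 24 h pools (adjusted p from 0.127 to 0.245 in limma) or without 10 D pool 3, with the log2 change over 1 in each case. Cryab, a small heat shock protein that binds desmin and filamin C, had a log2 change of 0.86 at 24 h (limma, adjusted p = 0.198). The list's median was -0.23 at 24 h and -0.05 at 10 D, with 23 of 34 below 0 at 24 h. Myh8, the perinatal myosin heavy chain, was dim in C, at 0.444 ± 0.0906 (SD, n = 3), and stood at 0.654 ± 0.101 at 24 h and 1.34 ± 0.288 at 10 D, with every 10 D pool above every pool of C and 24 h. Its log2 change at 10 D was 1.59 (SE 0.31, unadjusted p = 0.000384) and was not called (limma, adjusted p = 0.553). The embryonic Myh3, also near or below the array median, had -0.35 at 24 h and 1.32 at 10 D (SE 0.65). Of the adult heavy chains, Myh2 changed by -0.89 and -0.58 (SE 0.42), Myh1 by -0.19 and -0.26, Myh4 of the fastest fibres by -0.25 and -0.27 and Myh7 of slow fibres by -0.29 and 0.20 on the log2 scale, none called.

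Of 10 factors that fold myosin or assemble sarcomeres, 8 were below 0 at 24 h with a median log2 change of -0.64, none of these was called lower, and 1 was called higher. The one called was Klhl40, a kelch protein that stabilises thin filament proteins, at 33.9 ± 1.03 in C (SD, n = 3), 82.6 ± 2.89 at 24 h and 37.2 ± 7.45 at 10 D (limma, adjusted p = 0.0915 at 24 h, a call that was not recomputed under other settings). Mylk4, a relative of Mylk2, was at 184 ± 32.9, 58.6 ± 14.8 and 181 ± 57.2 in the same order, with a log2 change of -1.66 at 24 h that was not called (adjusted p = 0.194). Fibre type genes outside the sarcomere gave no call: 7 of 7 fast ones, such as Pygm, were below 0 at both times with medians of -0.38 and -0.20, and of the 7 slow ones 4 were below 0 at 24 h and 7 at 10 D, with medians of -0.09 and -0.39. Ckmt2, the mitochondrial creatine kinase, was the 1 of these 7 with an unadjusted p under 0.05 against C, at -0.47 at 10 D. Between 10 D and 24 h, 2 of the 7 slow ones had an unadjusted p under 0.05 in limma, both lower at 10 D (2.95% of all probesets). The median log2 difference was -0.37 for the slow ones (5 of 7 below 0) and 0.08 for the fast ones (1 of 7 below 0).

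Markers of skeletal muscle were bright in all pools, with a summed level over 7 genes from 927 to 2024, and none was called. All 7 were below 0 at both times, and their median change on the log2 scale was -0.40 at 24 h and -0.32 at 10 D, against -0.22 and -0.22 for the fast members. Pygm is in this list and in that of the fast genes outside the sarcomere. Acta1 and Myh4 in this list are themselves sarcomere genes, though not members, and the member Des is also in the smooth muscle list. These lists are therefore not independent. Of the marker lists of other cells, S100a8 in the list of macrophages and neutrophils was the 1 gene called at 24 h, and the summed level of that list was from 10.5 to 13.8 in C, 12.9 to 19.5 at 24 h and 11.4 to 20.1 at 10 D. The summed levels of adipocyte markers (6 of 8 measured) were from 307 to 447 in C, 279 to 455 at 24 h and 240 to 415 at 10 D, and all 6 were below 0 at 10 D with a median log2 change of -0.80 (from -1.64 to -0.15; 1 of 6, Cidec, had an unadjusted p under 0.05), after -0.49 at 24 h. The summed levels of fibroblast markers (7 of 7) were from 147 to 269, 119 to 212 and 149 to 172, with medians of -0.33 and -0.01. The 5 keratinocyte markers tested were all below 0 at 24 h, with a median of -1.10. No gene of the lists for endothelial, smooth muscle, keratinocyte, satellite, Schwann and nerve or erythroid cells was called at either time. Their part in the levels of the members was not tested. No 2 arrays held identical values, and treated pools of the same number deviated from their group means together on MOE430A (r = 0.39, 0.56 and 0.10 for pools 1, 2 and 3, across probesets, which are not independent) and less on MOE430B (0.11, 0.16 and 0.01). Without pool 2 of both treated groups the 3 calls at 24 h stood and Tmod1 was also called. The share of all probesets called in that fit is not given.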

How the data were processed

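RNA from 9 pools of gracilis muscle was measured on MOE430A and MOE430B chips. The deposited values were intensities that the authors had computed by MAS 5.0, on a linear scale and unscaled between arrays (settings not given in the sources used here). Signals were expressed relative to the array median, a signal of 0 (18 values) was set to 0.05, and log2 was taken. For 100 probesets on both chips the MOE430A copy was kept. Probesets at or above the 25th percentile of the mean log2 signal of their chip (a signal of 14.1 and 6.97) were tested, 16969 and 16783, or 33752 in all. Each chip was fitted with limma 3.58.1 in R 4.3.3 (lmFit, then eBayes with an intensity trend, 6 residual degrees of freedom), with Benjamini-Hochberg adjustment over the 2 chips jointly. The number of arrays limits the precision, and a self-test on simulated data with 33725 probesets tested recovered at 24 h 0, 5, 33 and 47 of 50 probesets changed by 0.5, 1, 2 and 4 on the log2 scale.

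Symbols came from the platform annotation, updated to the gene table of GRCm38.p6, and 34945 probesets had 1 symbol. Of a gene with several probesets the one with the highest mean log2 signal was used. The members, pairs and gene lists were chosen with earlier results of these data known. Values in every pool are given for members with an adjusted p under 0.1 or an unadjusted p under 0.05 in the F test or a contrast and for both partners of each pair. Of the other lists the called genes and up to 3 with the smallest F test p were eligible. Values added beyond this rule, after they were seen, are those of Pdlim3, of the dimmer Flnc, Ldb3, Myl3, Tnni2 and Tpm3 probesets, of other members, of the titin probesets and of the heavy chains other than Myh8. Control probesets for RNA quality were not analysed here. The alternatives were other scalings, filters, variance models, probeset choices, a replicate block and leaving out pools.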

Additional observations from a re-analysis of the deposited data

How the results depend on the processing

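With 25 other settings, 5497 values of single genes were recomputed. Of these, 5169 kept their direction and side of the threshold, 45 lost a call, 35 gained one, and 0 changed sign while called. A further 248 changed sign without being called under either setting, 147 of them for members, with a median size of 0.08 as reported and 4 over 0.5 (Vcl at 10 D, from 0.87 to -0.20 on its second brightest probeset, and Bag3, to 0.10 or 0.18 without 10 D pool 2). Mybpc1 at 24 h went from -0.42 to 0.03 without 24 h pool 2, and Tpm1 at 24 h and Myoz1 at 10 D from -0.39 to 0.25 and 0.24 on the second brightest probeset. The fast members below 0 at 10 D, 9 as reported, were 6 under quantile normalization. The count of members called in the F test, 1 as reported, was 3 under quantile normalization and cyclic loess, 2 with the array median as a covariate, a filter at the 50th percentile or 16 added to each signal, 0 with no intensity trend and 0 on the second brightest probeset. The count at 24 h, 3 as reported, was 0 with no intensity trend, 0 on the second brightest probeset and 1 (Mylk2) by the methods' analysis of variance, 2 with no filter and 2 with each chip adjusted alone. The count between 10 D and 24 h, 0 as reported, was 3 under quantile normalization (Mylk2, Tcap and Flnc), 2 under cyclic loess and 1 with the 75th percentile, the covariate, the filter at the 50th percentile, 16 added, the analysis of variance or each chip adjusted alone. The other sarcomere and Z-disc genes, with 1 call at 24 h, had 2 with the covariate, 0 with no intensity trend and 0 on the second brightest probeset. The second brightest probeset exists for 14 members, 3 of them fast, 3 slow and 1 full pair, which excludes Mylk2 and Tcap. On it the median change of the fast members was 0.24 at 10 D, that of the slow members -0.31 at 24 h and -0.41 at 10 D, and that of the pair 0.32 and 0.39. At 10 D against C 0 members were called under every setting run. For the other settings, here and below, the share of all probesets called is not given. A higher or lower count is therefore not a result about the members.

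Leaving out 1 pool at a time gave 0 to 2 members in the F test, 0 to 3 at 24 h, 0 to 1 between 10 D and 24 h and 0 to 3 of the other sarcomere and Z-disc genes. The median change of the fast members then ran from -0.45 to -0.01 at 24 h and from -0.40 to 0.07 at 10 D. That of the slow members ran from -0.24 to 0.02 and from -0.30 to -0.02 (-0.0249 without C pool 2). That of the pairs ran from -0.50 to 0.05 and from -0.32 to 0.18. The extremes came most often without C pool 2, and the others without C pool 1 or 3, 24 h pool 1 or 10 D pool 1. With the replicate number as a block the F test called 2 members, the 24 h contrast 3 and the pair median at 24 h was -0.14. Between 24 h and 10 D pools of the same number the deviations correlated in 3 of 3 cases on MOE430A (0.10 to 0.56) and over 0.1 in 2 of 3 on MOE430B. No correlation with a C pool was over 0.1. The MOE430A array medians had the same order of pools at 24 h (62.1, 35.7 and 51.1) and at 10 D (88.4, 33.6 and 46.6). In C they had the opposite order (30.8, 65.0 and 42.8). The source of the correlations was not tested. Within the treated pools alone, with the replicate block, a fit chosen after seeing the data, 1 member (Mylk2) was called between 10 D and 24 h, where 0 were as reported. Leaving out pool 2 of 24 h and of 10 D together, a choice made after seeing the data, gave 2 members in the F test, 4 at 24 h, 1 between 10 D and 24 h and 3 of the other sarcomere and Z-disc genes. The causes of these moves were not tested.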
